A study of Mus musculus with 28 samples.

Results

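The genes described here are 7 subunits of the GABA-A receptor, the alpha subunits Gabra2, Gabra3, Gabra4 and Gabra5, the beta subunits Gabrb1 and Gabrb2, and the delta subunit Gabrd. They were taken by name from a table of 23453 genes with exonic counts and a table of 20422 genes with intronic counts, and all 7 are in both. The samples are single cells of mouse cortex. By their labels, 8 are astrocytes and 12 are neurons from C57/BL6 primary culture, harvested with a pipette, and 8 are interneurons of C57/BL6/N mice collected with a patch clamp pipette from acute slices of 300 µm. The labels describe a male mouse of 3 months for the cultured cells, whereas the study's reporting summary describes cultures of embryonic brain, and no source used here names the animal or culture behind a cell. Library kit and sequencer also differed between cultured and slice cells, by the labels.

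The columns of both tables carry codes, and no source found here ties a code to a label. The cells are therefore described in 3 blocks of codes: BRP564 and BRP566 to BRP572, called the BRP564 block (8 cells), the other BRP codes (12 cells), and the F codes (8 cells). The block sizes equal the numbers of labelled astrocytes, neurons and interneurons, but no cell type was assigned to a column, no test was made between blocks, and values are given per cell or as range and median. The split of the BRP codes was proposed with marker levels in view, so marker differences between the blocks are a description and support no identity. The summed level of 6 neuronal markers was 299 to 801 counts per 1000000 exonic counts of the cell (CPM) in the BRP564 block, 4737 to 8469 in the other BRP cells and 1608 to 16746 in the F cells. That of 6 astrocyte markers was 1445 to 5913 CPM, 175 to 2462 CPM and 0 to 4352 CPM. The 3 GABAergic markers summed to 0 to 42.6 CPM in the BRP564 block and to 478 to 11671 CPM in the F cells. Among the other BRP codes they reached 2714 CPM in BRP528, where the 2 glutamatergic markers stood at 0. Those 2 ranged from 0 to 133 CPM in the BRP564 block, 0 to 1021 in the other BRP cells and 0 to 4.92 in the F cells. The 3 interneuron subtype markers did not separate the blocks, at 0.23 to 182, 0 to 279 and 0 to 213 CPM in that order. Single F cells also carried markers of other types, with 4352 CPM of astrocyte markers in F7 and 2093 CPM of microglial markers in F16. The part of such RNA in the values below was not tested.

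Exonic totals were 12969692 to 19798892 counts in the BRP564 block, 17483754 to 26770944 in the other BRP cells and 838343 to 14831505 in the F cells. A count of 0 allowed up to 3 counts of the total, that is 0.152 to 0.231 CPM in the BRP564 block, 0.112 to 0.172 CPM in the other BRP cells and 0.202 to 3.58 CPM in the F cells. Intervals and such limits cover counting error only. F11 and F12 stood apart as a pair. Over genes, Pearson's r of their log2(CPM + 1) values was 0.954 for exonic counts, against 0.170 to 0.446 for the other 27 pairs of F columns, and 0.957 for intronic counts, against 0.360 to 0.502. They may share material, so several values of the F block are also given with their counts added together as 1 cell.

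GABA-A receptors are chloride channels built of 5 subunits around a pore, opened by GABA, the main inhibitory transmitter of the cortex. Most receptors hold alpha and beta subunits with a gamma subunit and sit at synapses, where the alpha subunit sets much of the kinetics and drug sensitivity. The delta subunit takes the place of gamma in receptors outside synapses that carry tonic currents, often beside the alpha4 subunit in forebrain. Astrocytes can express GABA-A receptors too.

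In the reference annotation (GENCODE M21, GRCm38) Gabra2 lies at chr5:70957597-71095849, Gabra4 at chr5:71569749-71658308 and Gabrb1 at chr5:71658113-72149037. Gabra2 and Gabra4 run on the minus strand and Gabrb1 on the plus strand. Gabra4 and Gabrb1 overlap at their 5′ ends by 196 bases, of which 46 are exonic in both. Gabra3 lies at chrX:72432681-72656848, Gabra5 at chr7:57407672-57510059 and Gabrd at chr4:155384980-155398112, all on the minus strand, and Gabrb2 at chr11:42419757-42629028 on the plus strand. Gabra5 shares 148 exonic bases with the antisense gene Gm9962. Further genes lie within Gabra3 and Gabrb1 outside their exons. Among these are the pseudogene Gm14735 in Gabra3 (3088 bases, opposite strand) and the antisense gene Gm38562 in Gabrb1 (19557 bases). How the counting treated strand is not given in the sources used here, so reads from these overlaps could not be divided between the genes. No stretch of 50 bases in the exons of a member occurs in sense in another subunit gene. In antisense, 2 stretches of Gabra2 and 2 of Gabra3 do so, and 0 of the other members.

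The windows from 250 bases before to 50 after the start are shown for the 2 beta genes, which divide the beta sum differently in the 2 BRP blocks, and for Gabra4, whose RefSeq start lies 387 bases from the first start of Gabrb1. They are RefSeq sequences on GRCm38.p6, printed 5′ to 3′ on the gene's strand. Capitals mark a TATA box (TATAAA) or a GC box (GGGCGG) read on either strand. The windows lie at chr5:71657671-71657970 for Gabrb1, plus strand, at chr11:42420190-42420489 for Gabrb2, plus strand, and at chr5:71658259-71658558 for Gabra4, minus strand.
Gabrb1: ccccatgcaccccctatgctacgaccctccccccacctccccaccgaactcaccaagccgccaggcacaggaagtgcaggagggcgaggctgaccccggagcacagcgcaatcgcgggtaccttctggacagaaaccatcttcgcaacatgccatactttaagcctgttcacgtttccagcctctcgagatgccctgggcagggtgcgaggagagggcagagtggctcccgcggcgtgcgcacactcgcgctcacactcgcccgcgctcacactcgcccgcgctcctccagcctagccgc
Gabrb2: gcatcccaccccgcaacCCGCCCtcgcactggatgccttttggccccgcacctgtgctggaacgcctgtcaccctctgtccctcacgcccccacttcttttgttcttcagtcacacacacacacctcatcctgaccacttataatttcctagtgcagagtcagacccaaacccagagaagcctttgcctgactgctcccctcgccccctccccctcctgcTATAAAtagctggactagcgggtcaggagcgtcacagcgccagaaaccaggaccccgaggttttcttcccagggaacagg
Gabra4: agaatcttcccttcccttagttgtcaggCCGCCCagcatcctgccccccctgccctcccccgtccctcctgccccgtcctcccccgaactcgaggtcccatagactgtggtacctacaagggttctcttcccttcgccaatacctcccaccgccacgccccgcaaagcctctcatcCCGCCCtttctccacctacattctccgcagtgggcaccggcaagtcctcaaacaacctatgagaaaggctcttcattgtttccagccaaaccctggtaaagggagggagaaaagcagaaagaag
The windows shown are the first of 2 for Gabrb1 and the first of 3 for Gabrb2, counted along the gene. The Gabrb1 window held none of the motifs searched and 25 CG dinucleotides, and the second held none and 9. The first Gabrb2 window held a TATA box and a GC box with 11 CG dinucleotides, whereas its other 2 windows held none of the motifs and 9 each. The Gabra4 window held GC boxes and 12 CG dinucleotides. Among 32851 windows of the same length, 13.6% held TATAAA, 35.7% held GGGCGG and 1.79% held the cyclic AMP response element TGACGTCA, which none of these windows held. The median number of CG dinucleotides was 7.

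The median levels of all 7 genes were highest in the other BRP cells, Gabrb1 had counts in all BRP cells, and Gabrd in a subset of the other BRP and F cells. With at least 10 exonic counts as the limit, the other BRP cells held a median of 6 of the 7 genes (range 4 to 7), the BRP564 block 2 (1 to 4) and the F cells 1.5 (0 to 4), or 2 (0 to 4) with F11 and F12 as 1 cell. Of the 19524 genes with a count in any cell, a median of 48.7% per cell reached the same limit in the other BRP cells, 54.1% in the BRP564 block and 10.1% in the F cells. All 4 alpha genes reached the limit in 9 of the 12 other BRP cells, in 0 cells of the BRP564 block and in 0 F cells. Both beta genes reached it in 12 of 12 other BRP cells, in 3 of 8 BRP564 block cells and in 1 of 8 F cells. At least 1 alpha and 1 beta gene were found together in 12, 6 and 3 cells of the blocks, in that order.

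**Figure D1:**
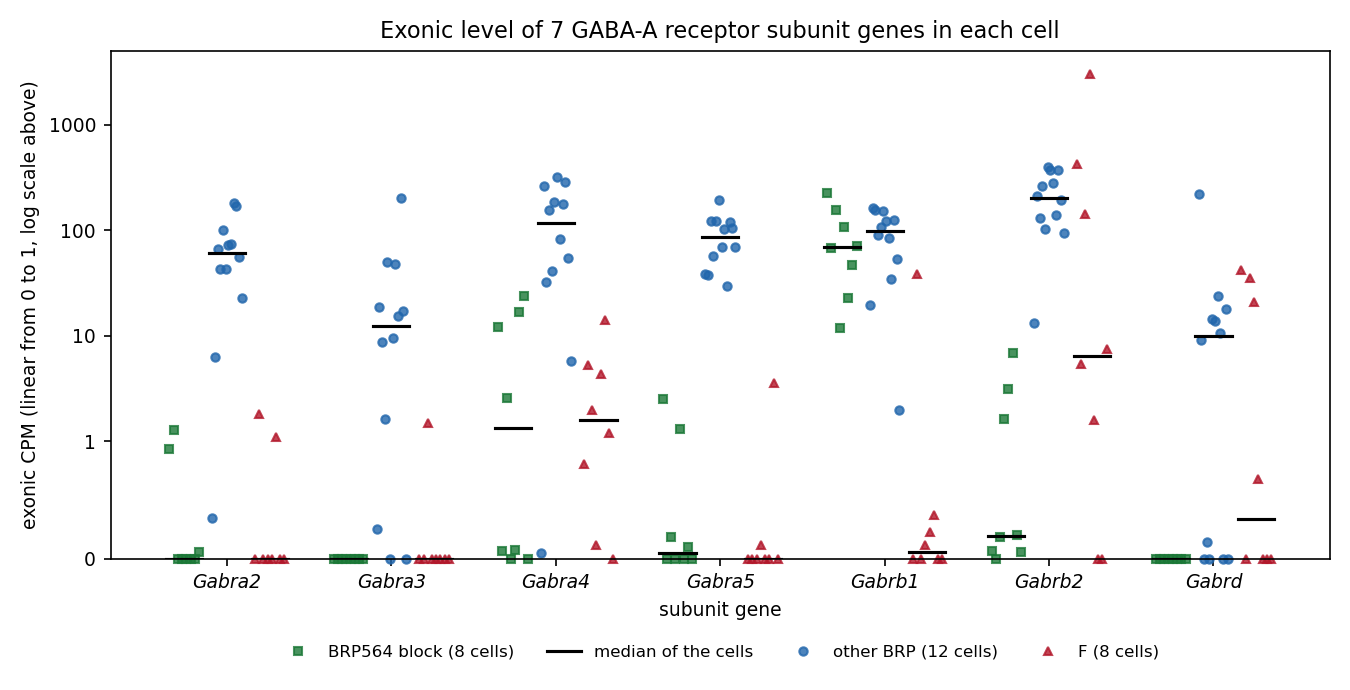
Exonic CPM of each subunit gene (y axis, linear from 0 to 1 and logarithmic above) in each of 28 single cells, by block of column codes. Each point is a cell and each bar the median of the block's cells. Gabra5 and Gabrb2 of every other BRP cell lie above those of every BRP564 block cell, and the highest Gabrb2 point is F7 at 3036 CPM.

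Gabra2, an alpha subunit of cortical synapses, was at 0.35 CPM in BRP528, 6.27 in BRP529 and 22.7 to 183 in the remaining other BRP cells, with a median of 60.8 CPM over the 12. BRP540 (183 CPM) and BRP541 (171 CPM) were highest. In the BRP564 block it was at 0.93 CPM in BRP564, 1.27 in BRP566, 0.05 in BRP572 and 0 in the other 5 cells. Among the F cells it had counts in F2 (1.81 CPM, 10 counts) and F12 (1.11 CPM, 3 counts) only. The other BRP block overlapped both other blocks through BRP528.

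Gabra3, an alpha subunit on the X chromosome, had 0 counts in all 8 cells of the BRP564 block. Among the 12 other BRP cells it ranged from 0 CPM in BRP537 and BRP543 to 203 CPM in BRP541, with a median of 12.4 CPM. The next highest cells were BRP536 at 50.2 CPM and BRP539 at 48.0 CPM. Of the F cells, F6 alone had exonic counts of Gabra3, at 1.49 CPM (18 counts). It was thus spread most unevenly among the alpha genes, with 3576 of its 7360 exonic counts in BRP541.

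Gabra4, the alpha subunit often paired with delta, was at 0.05 CPM in BRP528, a single count, and at 5.72 CPM in BRP543. The remaining other BRP cells held 32.0 to 322 CPM, and the median over the 12 was 118 CPM. BRP538 (322 CPM), BRP541 (284 CPM) and BRP529 (263 CPM) were highest. Unlike the other alpha genes it also reached 12.2, 16.8 and 23.5 CPM in BRP564, BRP570 and BRP571. The other cells of that block were at 2.59 CPM or below. In the F cells Gabra4 was low but widespread, with counts in 7 of 8 cells and a maximum of 14.0 CPM in F12 (38 counts). Its median there was 1.59 CPM. With the counts of F11 and F12 added as 1 cell, 6 of 7 cells had counts, the maximum was 8.03 CPM and the median 1.19 CPM. Scaled by DESeq2 size factors in place of the exonic total, the median of the 8 cells was 5.11 CPM, where the median gene of the F block shifted by 1.72 on the log2 scale.

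Gabra5, the alpha subunit known for tonic inhibition in hippocampus, was found in every other BRP cell, from 29.3 CPM in BRP540 to 191 CPM in BRP537, with a median of 85.7 CPM. BRP528, nearly without the other alpha members, held 38.6 CPM. In the BRP564 block the highest value was 2.54 CPM in BRP564, and in the F block 3.58 CPM in F16, which rests on 3 counts and equals the limit that a count of 0 allowed in that cell. The lowest other BRP cell therefore lay above every cell of both other blocks.

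Gabrb1, a beta subunit gene, was the member with exonic counts in the largest part of the BRP cells, 20 of 20. In the BRP564 block it was at 225, 67.1, 156, 11.8, 108, 22.9, 46.5 and 70.4 CPM in BRP564 and BRP566 to BRP572 in order of code. In the other BRP cells it ranged from 1.99 CPM in BRP543 and 19.7 in BRP528 to 164 CPM in BRP529, with a median of 97.9 CPM beside 68.8 CPM in the BRP564 block. The ranges of the 2 BRP blocks overlapped over most of their length. In the F cells Gabrb1 reached 38.3 CPM in F2 and was at 0.37 CPM or below in the other 7.

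Gabrb2, the beta subunit of many synaptic receptors of the forebrain, was at 6.87 CPM in BRP570, 3.16 in BRP569, 1.64 in BRP568 and at most 0.20 in the other 5 cells of the BRP564 block. In the other BRP cells it ranged from 13.1 CPM in BRP528 and 94.5 in BRP543 to 394 CPM in BRP537, with a median of 201 CPM, and no cell overlapped the BRP564 block. The F cells were split, with 3036 CPM in F7, 425 in F1 and 142 in F6, against 7.56 CPM or less in the other 5. F7 alone held 26388 of the 34447 exonic Gabrb2 counts of the F block, and its astrocyte markers were the highest of the F cells.

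Gabrd, the delta subunit, had 0 counts in all 8 cells of the BRP564 block. It stood at 222 CPM (4455 counts) in BRP528, an other BRP cell, and in that block at 9.09 to 23.9 CPM in 6 cells, at 0.14 CPM in BRP535 and at 0 in BRP534, BRP536, BRP541 and BRP543. In the F cells it was at 41.7 CPM in F1, 35.5 in F6 and 20.8 in F7, at 0.68 CPM (3 counts) in F11, and at 0 in the other 4. BRP528 is thus the cell with most Gabrd, with Gabra4 at 1 count. Its GABAergic markers stood at 2714 CPM, its astrocyte markers at 1342 CPM and its oligodendrocyte markers at 610 CPM, the highest of all 28 cells, and their part in its values was not tested. Leaving it out moved the Gabrd median of the other BRP cells from 9.89 to 9.09 CPM.

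All 10 cells with at least 10 Gabrd counts also held at least 10 counts of Gabrb2, and 10 cells held Gabrb2 without Gabrd. Of the former, 7 were other BRP cells, where Gabrb2 reached the limit in all 12. In those 7 cells the finding of both genes was certain whatever Gabrd did. Gabrd and Gabra4 were found together in 8 cells, 6 of them other BRP cells, and Gabrd without Gabra4 in 2 cells, BRP528 and F7. Gabrb1 was found beside Gabrd in 7 cells, none of them an F cell. Across the 12 other BRP cells, Spearman's rho of CPM was highest for Gabra4 with Gabrb2 (0.85), then for Gabra2 with Gabra3 (0.62), and was -0.29 for Gabrb1 with Gabrd. These cells differ in depth and may differ in type, and the values are descriptions.

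Every gene of the exonic table with a count in any cell was read in the same way, 19524 in all. For 2.12% of them every other BRP cell lay above every BRP564 block cell, and 2 of the 7 members did so, Gabra5 and Gabrb2. Every other BRP cell lay above every F cell for 7.24% of the genes and for 1 member, Gabra5. These counts rest in part on single cells. Without BRP528 the lowest Gabra2 level of the other BRP cells was 6.27 CPM, and Gabra2 joined both counts, giving 3 members above the BRP564 block beside 2.67% of the genes and 2 above the F cells beside 8.1%. Without F2 Gabrb1 lay above the remaining F cells, giving 2 members beside 10.2% of the genes. Every BRP564 block cell lay above every other BRP cell for 2.69% of the genes and for 0 members. Every F cell lay above every other BRP cell for 0% of the genes and for 0 members.

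Levels of different subunits were compared per length, as CPM per kb of exon, and each alpha gene was expressed as its share of the 4 alpha members in cells with at least 20 counts of them. Gabra5 led in 7 of the 12 other BRP cells, Gabra4 in BRP529, BRP535, BRP538 and BRP540, and Gabra3 in BRP541. The share of Gabra5 was 14.8% to 99.1% with a median of 52.5%. Its 99.1% was in BRP528, where it made up 98.4% of 789 raw alpha counts (95% exact binomial interval 97.2% to 99.1%). The share of Gabra4 was 0.062% in BRP528 and 70.3% in BRP529, with a median of 24.2%. Gabra2 reached at most 35.8%, in BRP540, and led in no other BRP cell. In BRP541 the genes were close, with 32.2% for Gabra3, 29.0% for Gabra4, 24.9% for Gabra5 and 13.9% for Gabra2, and with the longest coding transcript as the length Gabra4 led there instead (34.8%).

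In the BRP564 block 5 of 8 cells had the 20 alpha counts. Gabra4 led in 4 of them with 67.3% to 100%, and Gabra2 led in BRP566 on 20 of 21 counts. In the F cells only F2, F6 and F12 had enough, with 39 to 42 counts each. Gabra4 led in F2 (78.5%) and F12 (94.1%), and Gabra3 in F6 (53.8%, but 45.7% and behind Gabra4 with the longest coding transcript). With F11 and F12 as 1 cell, Gabra4 made up 96.0% there. These shares describe the 4 members among themselves and are not shares of all alpha subunit RNA of a cell.

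**Figure D2:**
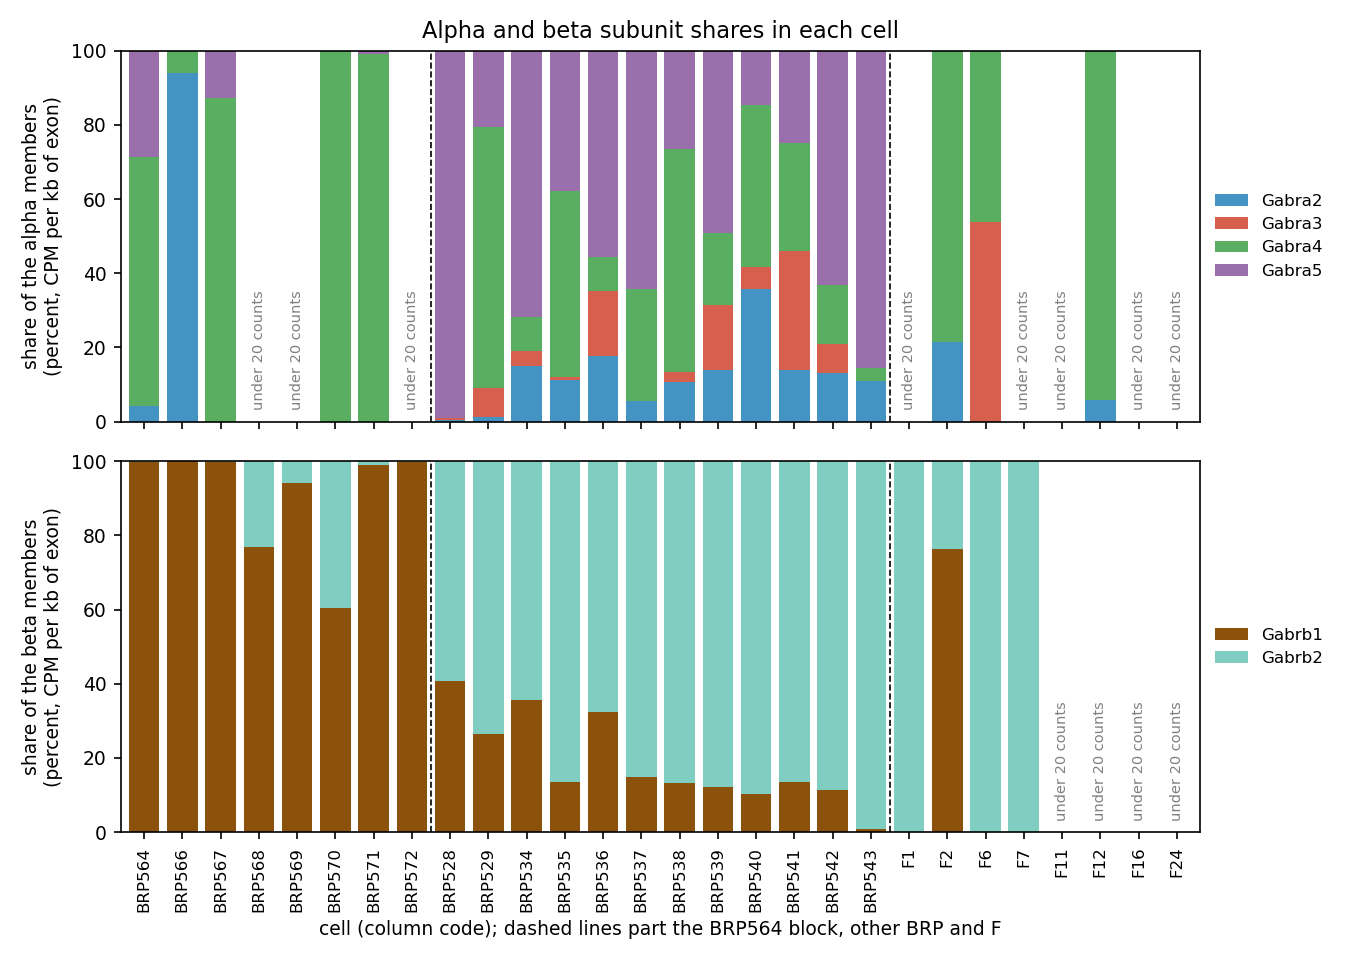
Share of each alpha gene among the 4 alpha members (upper panel) and of each beta gene among the 2 beta members (lower panel), in percent of CPM per kb of exon, for each cell along the x axis. Cells under 20 counts are left blank. With this length Gabrb1 makes up most of the beta sum in all 8 cells of the BRP564 block, BRP570 being the closest to even, and Gabrb2 in all 12 other BRP cells.

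In exonic counts the beta share divided the 2 BRP blocks without overlap. Gabrb1 made up 60.5% to 100% of the beta members in the BRP564 block, with a median of 99.4%. The lowest cell there was BRP570, where Gabrb1 fell to 49.2%, below Gabrb2, with the longest coding transcript as the length. In the other BRP cells it made up 0.96% in BRP543 to 40.8% in BRP528, and Gabrb2 led in all 12 with 59.2% to 99.0%. Of the 4 F cells with 20 beta counts, Gabrb2 made up nearly all in F1, F6 and F7, and Gabrb1 led in F2 with 76.5%. In raw counts without length Gabrb1 exceeded Gabrb2 in 3 of the other BRP cells, BRP528, BRP534 and BRP536, since its exons span 13.8 kb against 6.36 kb. Intronic counts did not divide the blocks in this way. Per kb of intron, Gabrb1 and Gabrb2 were at 1.14 and 0.082 CPM in BRP529 and at 0.087 and 2.72 CPM in BRP534, both other BRP cells. BRP566 of the BRP564 block, at 0.72 and 0.57 CPM, lay between them. As for the alpha genes, the shares are among the members alone.

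Intronic counts gave a different picture of which genes were present. Gabrb1, with 477 kb of intron, had 85 to 14350 intronic counts in all 28 cells. In the F block 7 of 8 cells had at least 100 intronic counts of Gabrb1 and under 10 exonic counts (6 of 7 with F11 and F12 as 1 cell), and F7 held 14350 intronic counts with 1 exonic count. Gabrb2 showed the same in F11, with 4395 intronic and 7 exonic counts, and in F12, with 2563 and 0, the pair that may share material. In F1 the order was reversed, with 5 intronic and 6296 exonic Gabrb2 counts. Gabra4 had 3739 intronic and 29 exonic counts in F2, and 1406 and 1 in F16.

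Among pairs of a member and a cell with at least 100 intronic counts, 12 of 16 in the F block had under 10 exonic counts (75.0%, against 72.5% of such pairs over all genes). With F11 and F12 as 1 cell it was 10 of 14 (71.4%, against 71.1%). In the BRP564 block it was 6 of 15 (40.0%, against 20.8%). Among the other BRP cells it was 1 of 49 (2.04%, against 26.5%), namely Gabra2 in BRP528. Intronic counts made up a median of 50.4% of all counts in the F cells, 15.7% in the other BRP cells and 8.75% in the BRP564 block.

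**Figure D3:**
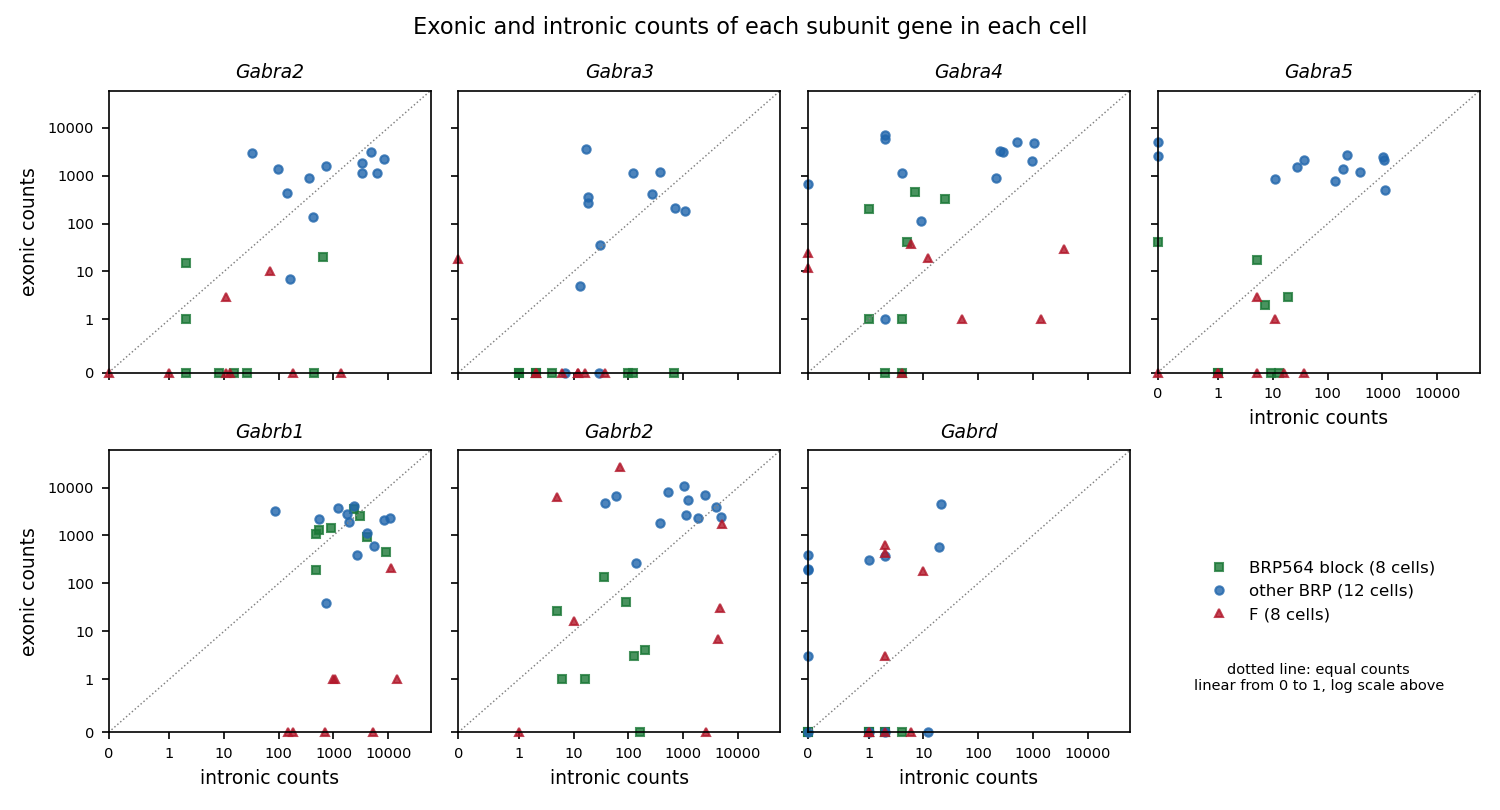
Exonic counts (y axis) against intronic counts (x axis) of each subunit gene in each cell, both axes linear from 0 to 1 and logarithmic above. Each point is a cell, marked by block, and the dotted line marks equal counts. Most F cells lie on or near the floor of the Gabrb1 panel at 146 to 14350 intronic counts, and the Gabrd points lie at 21 intronic counts or fewer.

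Gene by gene, the median intronic share over cells with at least 20 counts of the gene was 81.0% for Gabrb1 (28 cells), 77.4% for Gabra2 (18 cells), 61.5% for Gabra3 (14 cells, but 31.9% over cells with at least 100 counts), 34.7% for Gabrb2 (25 cells), 13.5% for Gabra5 (16 cells), 8.58% for Gabra4 (21 cells) and 0.39% for Gabrd (10 cells, but 1.21% with all counts pooled). The blocks differed, so this order mixes them. For Gabra4 the medians were 4.24% in the BRP564 block, 7.44% in the other BRP cells and 68.4% in the F cells, and for Gabrb2 83.3%, 22.5% and 74.6%. For Gabrb1 they were 46.9%, 64.6% and 100.0%. The Gabra4 medians rest on 4, 11 and 6 cells, with ranges of 0.51% to 10.6%, 0% to 32.4% and 0% to 99.9%. Single cells can therefore move those of the BRP564 block and the F cells. Single cells spread widely, from 1.05% to 100% for Gabra2 and from 0.079% to 100% for Gabrb2. Gabrd, with 10.3 kb of intron, had 95 intronic counts in all against 7729 exonic counts. Gabra3 had 691 intronic counts and no exonic count in BRP570. In the BRP564 block 3 of 8 cells had at least 10 intronic counts of it, and the median was 3. Its absence from the exons of that block therefore did not extend to the introns of every cell. Other genes lie within Gabra3, and their part in these counts was not tested.

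Exonic counts of 9 further subunit genes were also read. Gabrg1, a gamma subunit gene, was the most abundant of these 9, with at least 10 exonic counts in 5 of 8 BRP564 block cells, where its median was 11.5 CPM. Its highest value was 83.6 CPM in BRP529, an other BRP cell, and the next highest cell of that block was at 3.29 CPM. Gabrp reached 6.06 CPM in BRP540. Gabra6, Gabrg3, Gabre, Gabrq, Gabrr1, Gabrr2 and Gabrr3 had 0 to 19 exonic counts each over all 28 cells.

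Genes that anchor, move and supply the receptor were read for 19 genes of a fixed list. All 19 had exonic counts in every other BRP cell, 12 in every BRP564 block cell and 2 in every F cell, whereas of all genes 33.7%, 43.4% and 1.35% did so. Gphn, the scaffold gephyrin, had a median of 96.7 CPM in the other BRP cells, 14.6 in the BRP564 block and 79.6 in the F cells. Lhfpl4, which holds receptors at synapses, had medians of 355, 48.7 and 0.11 CPM, but its highest value of all 28 cells was 829 CPM in F2. Slc12a5, the chloride exporter KCC2 that makes GABA inhibitory, had 557, 0.08 and 639 CPM. Slc12a2, the chloride importer NKCC1, had 36.6, 76.1 and 0 CPM. Gabbr1, a subunit of the metabotropic GABA-B receptor, had 430, 3.90 and 174 CPM. The F cells spread widely, from 0 to 322 CPM for Gphn, 0 to 829 for Lhfpl4, 0 to 2148 for Slc12a5 and 2.53 to 1342 for Gabbr1. The medians of 0.08 and 0.11 CPM lie below the limits that a count of 0 allowed in those blocks. Over the 19 genes the median of these medians was 69.0 CPM in the other BRP cells, 28.8 in the BRP564 block and 0.98 in the F cells, beside 85.7, 0.051 and 0.058 CPM over the 7 members. Over all 19524 genes it was 0.22, 1.89 and 0 CPM. Gabarapl1 belongs to a family of trafficking and autophagy proteins. It had the highest median of the 19 in the F cells, 1540 CPM (0.12 to 3449) beside 694 in the other BRP cells. With F11 and F12 as 1 cell the F medians were 1175 CPM for Gabarapl1, 210 for Slc12a5, 136 for Gabbr1 and 39.8 for Gphn, and the median over the 19 genes was 0.28 CPM.

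Among the genes whose CPM ranked most like a member over the 28 cells, by Spearman's rho over 12148 genes with a count in at least 10 cells, were Arc (0.92), Lamp5 (0.90) and Icam5 (0.89) for Gabra2, Epha6 (0.90) for Gabra3, Gdf1 (0.81) for Gabra4, Cacng3 (0.89) and Lrrtm1 (0.88) for Gabra5, Mtmr3 (0.85) for Gabrb1, Syp (0.87) for Gabrb2 and Rtn3 (0.82) for Gabrd. These values include the differences between blocks, and the points differ in depth, most of all among the F cells. Over the 20 BRP cells alone the values were 0.91 for Arc, 0.95 for Lamp5, 0.86 for Icam5, 0.90 for Epha6 and 0.85 for Gdf1. They were 0.84 for Cacng3, 0.85 for Lrrtm1, 0.65 for Mtmr3, 0.84 for Syp and 0.76 for Rtn3. The 20 cells pool both BRP blocks, so these values still include the difference between them. No value within a block is given for these genes.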

How the data were processed

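Single-cell RNA-seq of 28 mouse cortical cells was analysed. The authors deposited raw counts per gene for exons and for introns, without normalization. The submitters' processing notes name bcl2fastq 2.17, STAR 2.4.0 and mm10, and the counting tool, annotation, strand setting and filters are not given in the sources used here. The codes of 28 columns matched no label, so no column entered a comparison between groups and no test was made.

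CPM are counts per 1000000 exonic counts of the cell. Shares used the union of exons of GENCODE M21 as length, a minimum of 20 counts, and 95% exact binomial intervals. No molecular identifiers are described, so counts are not independent molecules. RefSeq start windows were found for 6 of the 7 members. The members, blocks and gene lists were chosen with earlier results of these data known. The genes named are the members, a fixed list of related genes, and for each member up to 3 genes of most similar rank. Some genes of that rule are not reported here. The ranking step was tested on simulated data and recovered 100% of 200 planted genes among 12148.

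Alternatives were other scalings (edgeR 4.0.16 TMM factors, DESeq2 1.42.0 size factors), stricter minimums, thinning to 800000 counts, intronic counts and each cell left out in turn. Those added after the data were examined were F11 with F12 as 1 cell, BRP528 left out, the longest coding transcript as length, and the overlap between blocks under each scaling and with each cell left out. Python 3.11.15, pandas 2.3.3, scipy 1.17.1 and R 4.3.3 were used.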

Additional observations from a re-analysis of the deposited data

How the results depend on the processing

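No paired analysis was possible because no column could be tied to a labelled sample and no test was made. Under alternatives other than each cell left out in turn, 128 values stayed within the 95% binomial interval of the median over cells (for counts of cells, within 1.5 times) and 22 moved. The 128 include the medians of the other BRP cells without BRP528, added after the data were examined. With each cell left out in turn, 397 values stayed and 3 moved, and the medians without BRP528 are counted there again. Leaving out 1 cell can move a median only as far as a neighbouring value, which lies within that interval. A count of cells can change by at most 1. The number that stayed was thus largely fixed in advance and does not measure how far the values depend on single cells. With intronic counts added, Gabra2 was detected in 27 cells, Gabra3 in 28 and Gabrd in 25, and thinning to 800000 counts left Gabra2 in 11. The number of cells led by Gabra2 was 2 in raw counts, 0 at a minimum of 100 counts, 14 in intronic counts and 0 to 1 with a cell left out (0 without BRP566). The number led by Gabra3 was 0 in raw counts, 1 at 100 counts, 0 with the longest coding transcript and 1 to 2 with a cell left out (1 without BRP541 or F6). In intronic counts Gabra4 led 4 cells, Gabra5 3, Gabrb1 19 and Gabrb2 9. With all cells pooled, the intronic share was 19.5% for Gabra4 and 33.5% for Gabra3. Of the 3 genes nearest to each member, 1 was kept for Gabra2, Gabra3 and Gabrb1 over the 20 BRP columns and 0 for Gabra4, Gabra5, Gabrb2 and Gabrd. Other scalings shifted the median gene by -0.58 to 0.08 on the log2 scale in the other BRP cells, by -0.96 to 0.06 in the BRP564 block and by -0.95 to 1.72 in the F cells. There the interval over 8 cells is wide, and values counted as staying include Gabrb2 at 2.68 to 16.8 CPM, Gabra4 at 1.02 to 5.11 and Gabrd at 0.18 to 4.26 over the scalings. The Gabrd median of the F cells, 0.34 CPM, was 0 without F1, F6, F7 or F11 and 0.68 without F2, F12, F16 or F24. Under each of the 4 other scalings the members that did not overlap between blocks were the same. With a cell left out, their number changed only without BRP528, which added Gabra2 to the members above the BRP564 block (3) and above the F cells (2), and without F2, which added Gabrb1 to those above the F cells (2). The causes were not tested. The depth of F16, 838343 exonic counts, limits what its zeros show.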

Other observations

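Gabrg3, a gamma subunit gene, had 2 exonic counts over the 28 cells, 1 in each of 2 cells, and 56973 intronic counts, with at least 10 in all 28 cells. Among the members, Gabrb1 in F7 had 14350 intronic counts and 1 exonic count, whereas its exonic counts were high in most BRP cells. Such cases were common over all genes. Of pairs of a gene and a cell with at least 100 intronic counts, 30.6% had under 10 exonic counts, and 72.5% in the F block.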
